A study of Homo sapiens with 8 samples.

Results

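The miR-26 family was followed through small RNA-seq libraries of 4 human tumor-derived cell lines. Its members were chosen by name and comprise hsa-miR-26a-5p, hsa-miR-26a-1-3p, hsa-miR-26a-2-3p, hsa-miR-26b-5p and hsa-miR-26b-3p (hsa- is omitted hereafter), which are 5 of the 2588 mature miRNA names in the table. They occupy 6 of its 2813 entries, because miR-26a-5p is listed once for each of its 2 genomic copies. Entries sharing a name were summed, and both entries of miR-26a-5p were also kept apart.

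The lines were ES-2 (ovarian cancer), MV-3 (melanoma), Huh-7 (hepatocellular carcinoma) and A-549 (lung adenocarcinoma), with 2 replicate libraries of each. All were parental cells without a knockdown or treatment, grown in DMEM with serum and harvested 48 h after seeding. No normal tissue or untransformed cell was compared here, and each tumor type was represented by 1 line, so that line and tumor type cannot be told apart.

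MiRNAs are short RNAs that guide Argonaute proteins to complementary sites in mRNAs, mainly through the bases of the seed near their 5′ end. Each miRNA hairpin yields a 5p and a 3p arm, of which 1 is usually kept and the other degraded. The miR-26 hairpins lie in introns of the CTDSP genes, which encode small phosphatases acting on the C-terminal domain of RNA polymerase II, and can be transcribed together with these hosts. MiR-26 is known for repressing EZH2, the histone methyltransferase of Polycomb, and has been studied as an inhibitor of liver tumor growth.

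The mature sequences are shown because they decide which measurements can separate the family members. They were read from RefSeq (build GRCh38.p14), where all 5 members were matched, and capitals mark the seed at bases 2 to 8.
miR-26a-5p: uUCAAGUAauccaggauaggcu
miR-26b-5p: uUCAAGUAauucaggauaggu
miR-26a-1-3p: cCUAUUCUugguuacuugcacg
miR-26a-2-3p: cCUAUUCUugauuacuuguuuc
miR-26b-3p: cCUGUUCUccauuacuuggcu
MiR-26a-5p has 22 bases and miR-26b-5p has 21. Over the 21 shared positions, counted from the 5′ end of miR-26a-5p, 19 are identical and the differences are C11U and C21U. Both 5p arms therefore carry the same seed, and only bases outside it tell them apart. The miR-26a 3p arms share 17 of 22 bases and differ by G11A, C19U, A20U, C21U and G22C, written from miR-26a-1-3p to miR-26a-2-3p and counted from the 5′ end.

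In GRCh38 coordinates, the MIR26A1 hairpin lies at chr3:37969404-37969480 on the plus strand, in intron 5 of 7 of the canonical CTDSPL transcript. The MIR26A2 hairpin lies at chr12:57824609-57824692 on the minus strand, in intron 5 of 7 of CTDSP2. The MIR26B hairpin lies at chr2:218402646-218402722 on the plus strand, in intron 4 of 6 of CTDSP1. Each hairpin has the strand of its host, and was intronic in all spanning transcripts of GENCODE release 44, which number 6 for CTDSPL, 6 for CTDSP2 and 15 for CTDSP1. MIR26A1 and MIR26A2 yield an identical miR-26a-5p, so that only their 3p arms can assign a read to one of these 2 loci.

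The libraries held from 1173902 to 2670030 reads on mature miRNAs. The deposited values are called normalised CPM, which are read counts per 1000000 that the authors scaled with the trimmed mean of M values (TMM), a factor for differences in composition. Library CPM are the same reads per 1000000 without this factor. TMM factors ranged from 0.593 in A-549 to 1.70 in Huh-7, so that the scales differ most for these lines. MiR-122-5p, the defining hepatocyte miRNA, reached 83721 ± 3531 normalised CPM (SD, n = 2) in Huh-7 and at most 39.2 in any library of another line. The other hepatocyte miRNAs, miR-885-5p and miR-192-5p, were at 3181 and 5030 in Huh-7, and miR-192-5p was also at 4540 in A-549. MiR-211-5p, a melanocyte miRNA, had 0 reads in both MV-3 libraries. Of the 3 blood miRNAs examined, miR-142-3p was at 357 ± 27.5 normalised CPM (SD, n = 2) in ES-2 and at 0 in all libraries of other lines, whereas miR-451a and miR-223-3p did not exceed 1.64 in any library. Of the epithelial miRNAs, miR-200b-3p was at 1853 in Huh-7 and 1354 in A-549, but at most 21.4 in any ES-2 or MV-3 library, while miR-200c-3p stayed between 12.6 and 129 and miR-141-3p at or below 5.65 in all libraries. The part of these miRNAs in the family's levels was not tested.

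MiR-26a-5p was the most abundant member in every library. Its normalised CPM in replicates 1 and 2 were 14864 and 15641 in ES-2, and 10452 and 10908 in MV-3. They were 18079 and 16514 in Huh-7, and 6892 and 6987 in A-549. Huh-7 was highest and A-549 lowest, and the values of no pair of lines overlapped. The means were 17296 ± 1107 in Huh-7, 15253 ± 550 in ES-2, 10680 ± 322 in MV-3 and 6939 ± 67.2 in A-549 (SD, n = 2 each).

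The neighbours Huh-7 and ES-2 in this order were not separated (log2 fold change 0.18, 95% interval 0.03 to 0.33, limma adjusted p = 0.0445), calls being made below 0.01. MiR-26a-5p was lower in MV-3 than in ES-2 (log2 fold change -0.51, SE 0.06, limma adjusted p = 0.000884), a call that was lost without ES-2 replicate 2 (-0.48, limma adjusted p = 0.0113), and higher in Huh-7 than in MV-3 (0.69, adjusted p = 0.000116). A-549 was below each of the other lines, 2.20-fold lower against ES-2 (limma adjusted p = 1.58e-05), 1.54-fold lower against MV-3 (0.000248) and 2.49-fold lower against Huh-7 (5.01e-06). In bulk RNA, fewer cells expressing a miRNA and less of it per cell cannot be told apart.

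The place of MV-3 depended on the scaling. In library CPM, miR-26a-5p was at 13073 ± 281 in ES-2 and 12429 ± 567 in MV-3, and the log2 fold change of MV-3 over ES-2 was -0.07 (limma adjusted p = 0.313). Huh-7 then stood apart at 28841 ± 989, called above ES-2 (limma adjusted p = 3.23e-06), and A-549 stayed lowest at 4169 ± 33.6. Without the TMM factor, the median difference of all miRNAs tested moved as well, by 0.40 for MV-3 over ES-2 and by 0.88 for Huh-7 over ES-2 on the log2 scale. MiR-26a-5p took 2.88% of all miRNA reads in Huh-7, where it ranked 4 in both libraries, and 0.417% in A-549, where it ranked 24 in both.

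MiR-26b-5p, the member with the same seed from CTDSP1, followed another order. Its normalised CPM in replicates 1 and 2 were 1423 and 1808 in A-549, 2505 and 2456 in ES-2, 5691 and 5396 in Huh-7, and 3938 and 4550 in MV-3. Huh-7 was again highest and A-549 lowest without overlap of any pair of lines, but MV-3 stood above ES-2. The means were 5544 ± 209 in Huh-7, 4244 ± 433 in MV-3, 2481 ± 35.0 in ES-2 and 1615 ± 273 in A-549 (SD, n = 2 each).

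**Figure D1:**
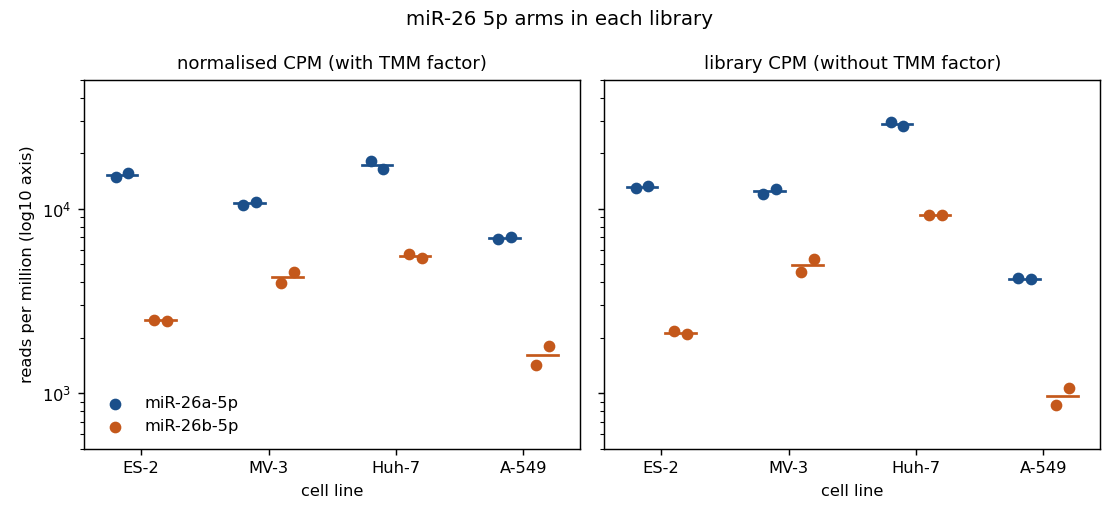
Level of miR-26a-5p (blue) and miR-26b-5p (orange) in each of the 8 libraries by cell line, on a log10 axis in normalised CPM (left, with the TMM factor) and library CPM (right, without it). Points are libraries and bars are means of 2. MiR-26a-5p lies above miR-26b-5p everywhere, and ES-2 lies above MV-3 for miR-26a-5p but below it for miR-26b-5p on both scales, while the miR-26a-5p gap between them narrows to 13073 against 12429 in library CPM.

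MiR-26b-5p was higher in Huh-7 than in ES-2 (log2 fold change 1.16, SE 0.13, limma adjusted p = 0.000263) and lower in A-549 than in MV-3 (-1.40, adjusted p = 0.000166) and Huh-7 (-1.79, adjusted p = 3.48e-05). These 3 calls were kept in all alternatives run. Huh-7 and MV-3, the neighbours at the top, were not separated (0.39, 95% interval 0.08 to 0.69, limma adjusted p = 0.0373). MV-3 was above ES-2 by 0.77 (limma adjusted p = 0.00346), a call lost without any 1 of the ES-2, MV-3 or Huh-7 libraries. The log2 fold change ranged from 0.67 to 0.87 without an ES-2 or MV-3 library, and stayed at 0.77 without a Huh-7 library. A-549 was below ES-2 by a log2 fold change of -0.63 (limma adjusted p = 0.00582), which missed the threshold in 11 of 20 alternatives, 7 of them without 1 library (A-549 replicate 1 or any ES-2, MV-3 or Huh-7 library). The adjusted p ranged from 0.000313 to 0.0488, and without A-549 replicate 1 the log2 fold change was -0.46.

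The relation of both 5p arms to each other does not depend on scaling between libraries, because it is formed within each library. The ratio of miR-26a-5p to miR-26b-5p reads was 5.93 and 6.37 in the ES-2 replicates, 4.84 and 3.86 in A-549, and 2.65 and 2.40 in MV-3. The Huh-7 replicates were close to each other, at 3.12 ± 0.0823 (SD, n = 2). The lines did not overlap, with ES-2 highest and MV-3 lowest. As a share of the reads of both arms, miR-26a-5p made up 86.0 ± 0.604% in ES-2, 81.2 ± 2.44% in A-549, 75.7 ± 0.486% in Huh-7 and 71.6 ± 1.46% in MV-3 (SD, n = 2 each). The exact permutation test separated the lines (p = 0.00952, the smallest possible with 8 libraries in 4 pairs, and 0.0381 after Benjamini-Hochberg adjustment over 4 ratios). ES-2 exceeded MV-3 by 2.44-fold, or 1.28 on the log2 scale, against a pooled SD of 0.13 between replicates. The adjusted p rose to 0.0762 without ES-2 replicate 2, where the difference was 1.23, and likewise without Huh-7 replicate 2, where it was 1.28.

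**Figure D2:**
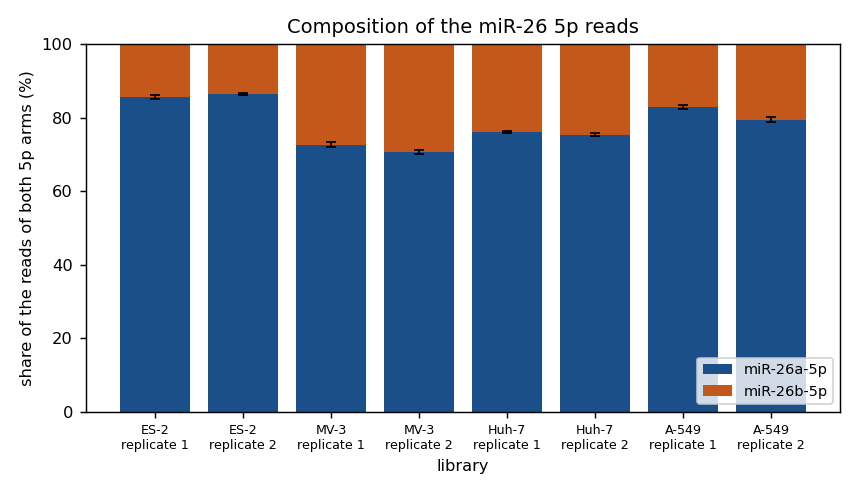
Share of miR-26a-5p (blue) and miR-26b-5p (orange) in the reads of both 5p arms, in percent, for each library. Black bars are exact 95% binomial intervals, which cover counting error only, and the miR-26a-5p share runs from 70.6% in MV-3 replicate 2 to 86.4% in ES-2 replicate 2.

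Summed over both 5p arms, the normalised CPM of the shared seed were 22840 ± 1315 in Huh-7, 17733 ± 515 in ES-2, 14924 ± 755 in MV-3 and 8554 ± 340 in A-549 (SD, n = 2 each). The lines differed by the exact permutation test (p = 0.00952, the smallest possible), and Huh-7 was 2.67-fold above A-549. In library CPM the same comparison gave 38088 ± 1063 against 5139 ± 113, which is 7.41-fold, with MV-3 (17371 ± 1146) above ES-2 (15199 ± 220). The end points Huh-7 and A-549 were thus kept, while the middle lines changed places. MiR-1297 and miR-4465, the other RefSeq miRNAs with this seed, had 0 reads in all 8 libraries. The floor set for such counts was 3 reads, or between 0.845 and 2.45 normalised CPM depending on the library.

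The 3p arms were rare by comparison. Over all libraries, miR-26a-2-3p had 486 reads, miR-26b-3p 100 and miR-26a-1-3p 57, against 218166 for miR-26a-5p and 62538 for miR-26b-5p. The 3p arms made up 0.248% of miR-26a reads and 0.160% of miR-26b reads. Among 149 other miRNA names with at least 1000 reads over both arms, the median share of the minor arm was 2.86%, and 21.5% and 17.4% of them had a lower share than miR-26a and miR-26b, respectively.

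MiR-26a-2-3p, the 3p arm of the CTDSP2 locus, had 13 and 19 reads in A-549, 43 and 79 in ES-2, 92 and 88 in Huh-7, and 52 and 100 in MV-3. This corresponds to 11.8 ± 5.33, 35.2 ± 7.58, 28.0 ± 2.93 and 46.7 ± 11.6 normalised CPM (SD, n = 2 each). A-549 was lowest and did not overlap with any other line, whereas in normalised CPM the ES-2 libraries overlapped with those of MV-3 and Huh-7. In library CPM they did not overlap, with ES-2 at 25.9 and 34.4, Huh-7 at 42.3 and 51.2, and MV-3 at 44.3 and 64.5. A-549 was below MV-3 by a log2 fold change of -1.94 (SE 0.40, limma adjusted p = 0.00658), but this call was lost in 8 of 20 alternatives, with the adjusted p between 0.000978 and 0.0411. They included leaving out A-549 replicate 1 (log2 fold change -1.51), any MV-3 library, or any ES-2 or Huh-7 library, where it stayed at -1.94. Against ES-2 the log2 fold change was -1.55 (limma adjusted p = 0.0165) and against Huh-7 it was -1.24 (0.0314), neither of which passed the threshold. Without the TMM factor both were called (-1.99, limma adjusted p = 0.00457, and -2.62, adjusted p = 0.000889). In Huh-7 against ES-2, the log2 fold change was -0.31 (limma adjusted p = 0.575) and turned to 0.62 (adjusted p = 0.191) without the TMM factor.

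MiR-26a-1-3p, the 3p arm of the CTDSPL locus, had 6 and 0 reads in A-549, 0 and 7 in ES-2, 16 and 15 in Huh-7, and 6 and 7 in MV-3. It did not pass the filter on low values and was not tested alone. Where it had 0 reads, the exact 95% binomial interval reached up to 2.56 normalised CPM in ES-2 replicate 1 and 3.02 in A-549 replicate 2. Pooled over the libraries, its share of the miR-26a 3p reads was 57 of 543, or 10.5%. The exact 95% binomial interval, 8.05 to 13.4%, covers counting error only and not the spread between libraries. The share was 14.8% and 14.6% in the Huh-7 libraries and ranged from 0 to 31.6% in the others, where 19 to 107 reads stood behind each value. The ratio of miR-26a-1-3p to miR-26a-2-3p was not separated among lines (exact permutation p = 0.676 before and after adjustment over 4 ratios).

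The 2 table entries of miR-26a-5p could not supply a split by locus. Pooled over the libraries, the entry at CTDSPL on chromosome 3 had 109109 reads and the entry at CTDSP2 on chromosome 12 had 109057. The former held 50.0% (exact 95% binomial interval 49.8 to 50.2%, for counting error only). In 7 of 8 libraries the interval included 50%, the exception being A-549 replicate 1 at 48.9% (48.0 to 49.8%). The share of miR-26a-1-3p among miR-26a 3p reads, 10.5%, was far from that of the entries. How reads aligning to several places were treated was not stated, so the entries were not read as output of the loci. How much of each 3p arm is kept was not tested, so the 3p share was not read as their output either.

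**Figure D3:**
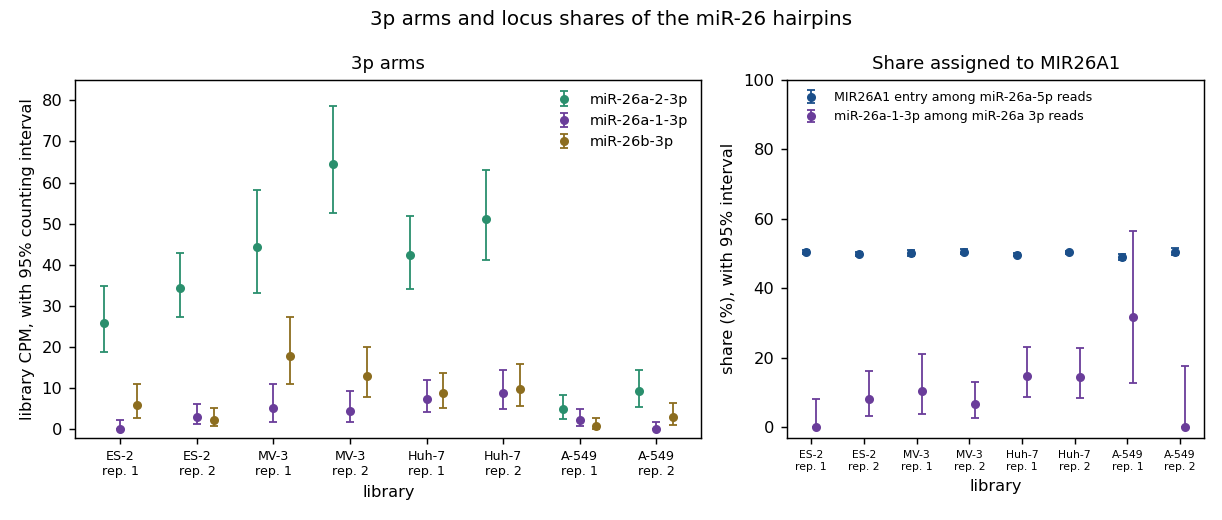
Left, library CPM of miR-26a-2-3p, miR-26a-1-3p and miR-26b-3p in each library with exact 95% binomial intervals for counting error. Right, percent of miR-26a-5p reads in the MIR26A1 entry (blue) and percent of miR-26a 3p reads that are miR-26a-1-3p (purple), with exact 95% binomial intervals. The 5p entries stay between 48.9% and 50.5%, while the 3p share lies between 0 and 31.6%.

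MiR-26b-3p, the 3p arm of the CTDSP1 locus, had 2 and 6 reads in A-549, 10 and 5 in ES-2, 19 and 17 in Huh-7, and 21 and 20 in MV-3. Its normalised CPM were 3.07 ± 2.60, 4.75 ± 3.09, 5.58 ± 0.323 and 13.3 ± 3.23 in the same order (SD, n = 2 each). Both MV-3 libraries lay above all others, yet no pair of lines was called, and the lowest limma adjusted p was 0.0378 for A-549 against MV-3 (log2 fold change -1.96), the only pair with an unadjusted p below 0.05 (0.0186). Without the TMM factor, A-549 against MV-3 was called (-2.63, limma adjusted p = 0.00884). The ES-2, Huh-7 and A-549 libraries held from 2 to 19 reads, and the 95% intervals of the differences among these lines all included 0.

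The balance of the arms was compared within libraries. There were 498 and 354 miR-26a-5p reads per miR-26a 3p read in ES-2, 595 and 469 in Huh-7, 589 and 450 in A-549, and 243 and 186 in MV-3. MV-3 had the lowest ratios without overlap with another line, while the other lines overlapped. Among the 4 lines the ratio was not separated after adjustment (exact permutation p = 0.0762, adjusted p = 0.152). The ratio of miR-26b-5p to miR-26b-3p was lowest on average in MV-3 (334 ± 114, SD, n = 2), but overlapped there with ES-2 and A-549. It was not separated either (exact permutation p = 0.352, adjusted p = 0.470).

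Counted over the members, 4 of 5 passed the filter and were tested among 528 miRNAs. In the joint comparison of the 4 lines, 2 of them were called, miR-26a-5p (limma adjusted p = 1.19e-05) and miR-26b-5p (8.00e-05), while 68.2% of all miRNAs tested were called. MiR-26a-2-3p (0.0156) and miR-26b-3p (0.0970) were not. For Huh-7 against ES-2, 1 member was higher, miR-26b-5p, where 27.7% of all miRNAs tested were called higher and 21.6% lower. For MV-3 against ES-2, miR-26b-5p was higher and miR-26a-5p lower, with 11.6% higher and 14.2% lower among all. For A-549 against ES-2, both 5p arms were lower, with 23.7% higher and 17.6% lower among all. For Huh-7 against MV-3, miR-26a-5p was higher, with 26.9% higher and 20.1% lower among all. For A-549 against MV-3, both 5p arms and miR-26a-2-3p were lower, with 24.1% higher and 15.5% lower among all. For A-549 against Huh-7, both 5p arms were lower, with 28.6% higher and 23.7% lower among all. The 6 comparisons share libraries, so their calls are not independent of each other.

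**Figure D4:**
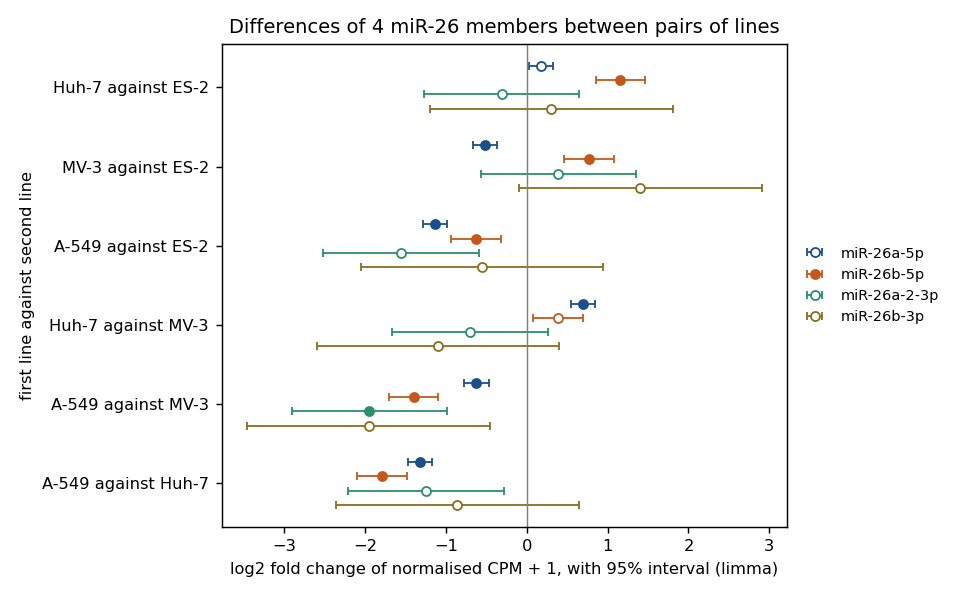
Log2 fold changes of normalised CPM + 1 for the 4 members tested in the 6 pairs of lines (first line against second), with 95% intervals from limma. Filled points were called at an adjusted p below 0.01 and open points were not. Intervals of the 3p arms are wide, and in MV-3 against ES-2 miR-26a-5p (-0.51) and miR-26b-5p (0.77) lie on opposite sides of 0.

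The spread of the 5p arms among the lines was set beside that of other miRNAs. In normalised CPM, the highest and lowest line means of miR-26a-5p differed by 2.49-fold, and 15.9% of the 527 other miRNAs tested had a smaller span. For miR-26b-5p the span was 3.45-fold, with 25.8% smaller. Among 180 others with at least 100 normalised CPM, 24.4% and 35.0% had a smaller span, respectively. On the log2 scale, the spans were 1.32 for miR-26a-5p and 1.79 for miR-26b-5p. The median span on this scale was 3.09 over all and 2.77 over those with at least 100 normalised CPM. These values depended on the scaling. In library CPM, an alternative chosen after seeing the data, the span was 6.91-fold for miR-26a-5p and 9.59-fold for miR-26b-5p. These are 2.79 and 3.26 on the log2 scale. Then 36.1% and 45.9% of the 527 others had a smaller span, and 43.9% and 51.7% of the 180 abundant ones, with a median of 3.43 on the log2 scale over all.

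The miRNAs whose pattern was most like that of miR-26a-5p over the 8 libraries were miR-18a-5p (Pearson r = 0.982), miR-877-5p (0.982), miR-615-3p (0.976), miR-130b-5p (0.965) and miR-186-5p (0.959). MiR-18a-5p, of the miR-17-92 cluster, was at 123 normalised CPM in A-549, 543 in ES-2, 510 in Huh-7 and 260 in MV-3. For miR-26b-5p they were miR-1226-3p (0.984), miR-197-3p (0.974), miR-425-3p (0.948), miR-421 (0.941) and miR-548h-5p (0.935). MiR-197-3p was at 100 normalised CPM in A-549, 169 in ES-2, 436 in Huh-7 and 339 in MV-3. The 5p arms correlated with each other at r = 0.706, which placed miR-26b-5p at rank 55 of 527 for miR-26a-5p. These values describe 8 libraries in 4 pairs of replicates that share their scaling.

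Other miRNAs encoded in introns of paralogous hosts offered a comparison. Of 9 such miRNAs, 5 passed the filter and 3 were called jointly (limma), beside 68.2% of all miRNAs tested, among them the most abundant ones, miR-103a-3p from the PANK genes and miR-128-3p from R3HDM1 and ARPP21. MiR-103a-3p was at 7353 ± 436 normalised CPM in A-549, 7470 ± 240 in ES-2, 12284 ± 511 in Huh-7 and 13624 ± 410 in MV-3 (SD, n = 2 each). MiR-128-3p was at 1201 ± 56.7, 1941 ± 50.4, 3009 ± 315 and 2089 ± 141 in the same order. A-549 thus had the lowest mean of both, as of both miR-26 5p arms, although for miR-103a-3p it differed from ES-2 by less than the SD. MiR-218-5p, also called jointly, had its lowest mean in Huh-7 (69.2 normalised CPM) and was at 301 in A-549. Against Huh-7, 1 of the 5 was higher in A-549 and 2 were lower (28.6% and 23.7% of all miRNAs tested), with a median log2 fold change of -0.74 against -0.09 for all. Against MV-3, 3 were lower in A-549 (15.5% of all), with a median of -0.80 against 0.08. Against ES-2, 2 were lower in A-549 (17.6% of all), with a median of -0.69 against 0.00. In Huh-7 against ES-2, 2 were higher and 1 lower (27.7% and 21.6% of all), with a median of -0.12 against 0.34. In MV-3 against ES-2, 2 were higher (11.6% of all), with a median of 0.11 against 0.00. In Huh-7 against MV-3, 1 was higher and 1 lower (26.9% and 20.1% of all), with a median of 0.42 against 0.19. With 5 miRNAs, these counts and medians are a description only.

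Of 5 other miRNAs known to repress EZH2, 4 passed the filter and all 4 were called jointly (limma), beside 68.2% of all miRNAs tested. Let-7a-5p, of the let-7 family, was at 80448 ± 9308 normalised CPM in A-549, 144175 ± 8905 in ES-2, 3164 ± 251 in Huh-7 and 90565 ± 4031 in MV-3 (SD, n = 2 each). MiR-101-3p, a repressor of EZH2 in several tumors, was at 1194 ± 133, 1663 ± 8.54, 733 ± 75.1 and 1510 ± 162 in the same order. In normalised CPM, both had their lowest mean in Huh-7, the line in which both miR-26 5p arms had their highest. The TMM factors were 1.63 and 1.70 in the Huh-7 libraries, against 0.608 and 0.593 in A-549. Without them, the mean of miR-101-3p would be lower in A-549 than in Huh-7, so its order depended on the scaling. Of these 4 miRNAs, 3 were called lower in Huh-7 against ES-2 (21.6% of all), 4 lower in Huh-7 against MV-3 (20.1%) and 3 higher in A-549 against Huh-7 (28.6%). The median log2 fold changes were -3.35, -4.53 and 2.998, against 0.34, 0.19 and -0.09 for all miRNAs tested. In the remaining pairs, 1 was higher and 2 lower in MV-3 against ES-2 (11.6% and 14.2% of all), 1 was lower in A-549 against ES-2 (17.6%), and 1 was higher and 1 lower in A-549 against MV-3 (24.1% and 15.5%). Their medians were -0.41, -0.51 and -0.26, against 0.00, 0.00 and 0.08 for all. Host and EZH2 transcripts were not analysed here.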

How the data were processed

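Small RNA libraries were made by the authors from 50 ng of total RNA of parental cells with the NEXTflex Small RNA kit. Per the labels and methods, reads were trimmed (Cutadapt 1.14), aligned to GRCh38 (Bowtie2 2.3.2) and counted on mature miRNAs of miRBase 21 (featureCounts 1.5.3). The treatment of multiply aligned reads, strand and the random adapter bases of the kit is not given in the sources used here, so intervals and floors hold for counting error alone. A normalised signal was deposited by the authors, the TMM-scaled CPM of edgeR 3.18.1. Dividing the values by the value of 1 read in their library gave whole reads for 100% of values (tolerance 0.001), from which library sizes and TMM factors followed.

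Entries of a name were summed. The main test was limma 3.58.1 (R 4.3.3) on log2(normalised CPM + 1), with a prior variance that follows the mean, 1 term per line, 8 libraries and 4 residual degrees of freedom, for 528 of 2588 miRNAs kept by filterByExpr. P-values were adjusted over all of these (Benjamini-Hochberg) and called below 0.01. Fold changes on this scale understate those of low miRNAs. Ratios (0.5 reads added on the log2 scale) and the 5p sum were tested by exact permutation of the F ratio, which takes differences in any direction, with a threshold of 0.05. The study describes the replicates as biological, while the labels do not say whether they came from separate cultures, so p-values measure the spread between these libraries, which may in part be technical. Replicate libraries differed by more than sampling noise (chi-square per degree of freedom 8.53 to 15.6). Tests were tried on simulated data.

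Alternatives were RLE factors, library size only, no filter or 10 library CPM in 2 libraries, a pseudocount of 0.1, edgeR 4.0.16 and DESeq2 1.42.0 on recovered reads, a threshold of 0.05, a replicate block, entries not summed, no prior trend, fits of 1 pair, and single libraries left out. Named miRNAs were all members, miRNAs with the same seed, the 5 with the highest Pearson r with each 5p arm, and the 2 most abundant of each comparison list. MiR-218-5p was added because it was also called jointly. Cell type markers were a short list of miRNAs. Members and lists were chosen with earlier results of these data known.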

Additional observations from a re-analysis of the deposited data

How the results depend on the processing

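The 5p sum (log2 difference between the highest and lowest line from 1.19 to 2.89) and the 5p calls in A-549 against Huh-7 held in all alternatives run. The joint count was 2 in the main test and rose to 3 with library size only, a threshold of 0.05 or the block. In Huh-7 against ES-2 and in Huh-7 against MV-3, the number of members called rose from 1 to 2 with library size only and at a threshold of 0.05. In MV-3 against ES-2 it fell from 2 to 1 with library size only, where miR-26a-5p was lost, to 0 without a trend in the prior variance (limma, adjusted p 0.0295 for miR-26a-5p and 0.0206 for miR-26b-5p), and to between 0 and 2 when 1 library was left out, with 0 without ES-2 replicate 2. In A-549 against ES-2 it fell from 2 to 1 with RLE factors, without a filter, without the trend and with only the libraries of the pair, and ranged from 1 to 2 when 1 library was left out. In A-549 against MV-3 that range was 2 to 3, and without the trend miR-26a-5p missed the threshold (limma adjusted p = 0.0103). With library size only, 3p arms added calls in the A-549 pairs, which then held 3 members against ES-2, 4 against MV-3 and 3 against Huh-7. A threshold of 0.05 likewise gave 3 members against ES-2 and 4 against MV-3, and added miR-26a-2-3p against Huh-7. Values that changed sign were all of differences that were not called. They were 0.62 for miR-26a-2-3p in Huh-7 against ES-2 with library size only, -0.27 for miR-26b-3p in Huh-7 against ES-2 without ES-2 replicate 2, and, for miR-26b-3p in A-549 against ES-2, 0.03 without ES-2 replicate 1 and 0.15 without A-549 replicate 1. When 1 library was left out, these 2 differences of miR-26b-3p ranged from -0.27 to 0.88 and from -1.25 to 0.15. The log2 difference of the miR-26a-5p to miR-26b-5p ratio ranged from 1.21 to 1.36 when 1 library was left out.

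Whether same-numbered libraries were paired is not stated. Their deviations correlated between -0.05 and 0.23 across lines, which cannot settle it. With the replicate block, the ratio difference stayed at 1.28 with an adjusted exact permutation p of 0.0833, where 24 relabellings allow no raw p below 0.0417. With this block, 3 members were called in A-549 against ES-2 and 3 jointly (limma), miR-26a-2-3p being the one gained. RLE factors moved the median difference of all miRNAs by at most 0.21 in size, and library size only by -1.33 in A-549 against Huh-7. The cause of these changes was not tested. With 2 libraries per line, several calls were lost when 1 library was left out. Some of these losses came without a library of a line outside the pair, where the log2 fold change stayed the same. Fits without 1 library had fewer residual degrees of freedom, and their filter kept from 572 to 614 miRNAs instead of 528. The 3p arms of MIR26A1 and MIR26B had fewer than 30 reads per library, which limited what could be seen of these arms.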
